A study of Homo sapiens with 4 samples.

Results

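TP63, SOX2, PIK3CA, NOTCH1, KLF5, GRHL2, OVOL1 and EGFR are genes that specify squamous epithelium or that are often altered in squamous cell carcinoma. They were examined in 5hmC-Seq data of FADU cells, an established line of hypopharyngeal squamous cell carcinoma. The series holds 4 libraries, 1 for each condition: normoxia with the scrambled control, normoxia with TET1-si, hypoxia with the scrambled control (1% oxygen for 18 h) and hypoxia with TET1-si (1% oxygen for 19 h). TET1-si denotes knockdown of TET1 by a short hairpin RNA from a lentiviral vector, and no oxygen level is given for normoxia. The deposited table lists 956365 windows of 500 bp along the genome (hg19). The names of its 4 value columns match no sample label, so that these values are not used here, and each window was scored only as listed in the table or absent from it. A listed window passed the authors' selection for this table in some or all of the libraries, and an absent window may still have had reads. The conditions are therefore not compared, and no level, replicate error or p-value is given.

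The 8 genes were chosen by name, among 19881 protein-coding genes with a canonical transcript (GENCODE on GRCh37, the same coordinates as hg19). Windows belonged to a gene when their midpoint fell between 3000 bp upstream of the start and the end of the canonical transcript. This gave 1670 windows, of which 904 were listed (54.1%, 95% Wilson interval 51.7% to 56.5%). Of all 5368882 autosomal windows without an undetermined base, 17.6% were listed. The intervals treat windows as independent, which neighbouring windows are not, so that they are too narrow and cover counting only.

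5-hydroxymethylcytosine (5hmC) arises when TET enzymes oxidize 5-methylcytosine, mostly at cytosines followed by guanine (CpG sites). In differentiated cells it is known to be frequent along the bodies of transcribed genes and at enhancers, and scarce at CpG-rich start sites, which usually carry little methylation. The labels of these libraries describe precipitation with an antibody against methylcytidine, the methods of the study describe chemical labelling of 5hmC, and which of the marks the windows hold was not tested. Among the 8 genes, TP63 encodes p63, the transcription factor that maintains the basal cells of squamous epithelium. SOX2 encodes a transcription factor of foregut progenitors. KLF5, GRHL2 and OVOL1 encode epithelial transcription factors. NOTCH1 is a receptor that drives squamous differentiation, EGFR is the receptor of epidermal growth factor, and PIK3CA encodes the catalytic subunit p110α of phosphoinositide 3-kinase, which acts downstream of receptors such as EGFR.

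All 8 genes had more listed windows than their base composition predicted, from 1.24 times in SOX2 to 4.31 times in GRHL2. The prediction for a window was the listed share of the autosomal windows that match it in CpG number and GC content. Over the 8 genes it came to 19.9% of windows, or 333.0 windows, so that the ratio of listed to predicted was 2.72 (2.6 to 2.84). The median of the 8 ratios was 2.1. Of all 15043 protein-coding genes with at least 20 windows, 57.1% had a ratio above 1, and their median ratio was 1.13 (quartiles 0.653 and 1.61). The neighbourhood was also densely listed for most of the genes: with each prediction multiplied by the ratio in the 1 Mb on both sides of the gene, an alternative chosen after seeing the data, the pooled ratio was 1.49.

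**Figure D1:**
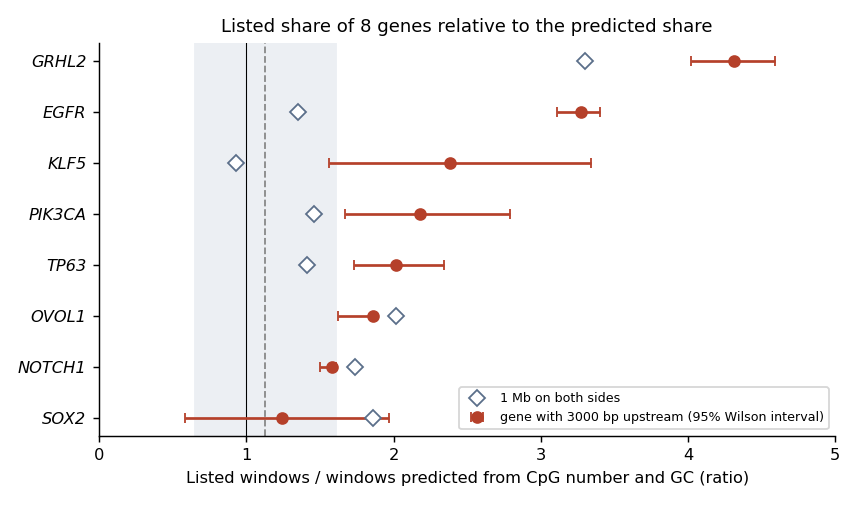
Ratio of listed windows to windows predicted from CpG number and GC content (x axis) for each of the 8 genes with 3000 bp upstream (red points with 95% Wilson intervals over windows) and for the 1 Mb on both sides (open diamonds). The dashed line is the median of 15043 protein-coding genes (1.13), the shaded band their quartiles and the solid line a ratio of 1. GRHL2 (4.31) and EGFR (3.27) lie farthest to the right, and in NOTCH1, OVOL1 and SOX2 the diamond lies to the right of the gene.

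GRHL2 had the highest ratio, 4.31 (4.02 to 4.59), above 99.7% of the 15043 genes. EGFR followed with 3.27 (3.11 to 3.40), above 98.5% of them. This order holds for the main prediction: with the prediction made within each chromosome, GRHL2 had 3.2, EGFR 3.96 and KLF5 3.28. Next in order came KLF5 (2.38, 1.56 to 3.34), PIK3CA (2.18, 1.67 to 2.79), TP63 (2.02, 1.73 to 2.34) and OVOL1 (1.86, 1.62 to 1.86), in which each gene's interval overlaps that of its neighbour. NOTCH1 had a ratio of 1.58 (1.5 to 1.61) and SOX2, with only 11 windows, 1.24 (0.581 to 1.97). The ratio and the plain share order the genes differently. The listed share was highest in the CpG-rich genes OVOL1 (26 of 26 windows) and NOTCH1 (106 of 109, 97.2%), where 53.9% and 61.4% were predicted. At these shares the ratio of OVOL1 could not be higher and that of NOTCH1 hardly, which limits their place in the order. It was 83.2% in EGFR (326 of 392) and 70.9% in GRHL2 (256 of 361), and lowest in TP63 (125 of 538, 23.2%) and PIK3CA (44 of 190, 23.2%).

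Against their own surroundings the genes fell into separate patterns. KLF5 and EGFR stood above the 1 Mb on both sides, with ratios 2.57 and 2.42 times those of the flanks. For KLF5 the flanks were listed slightly below prediction (0.928). GRHL2 lay within a densely listed region, with 2458 of 4000 flanking windows listed and a flank ratio of 3.3, so that the gene was 1.31 times its flanks. Of the 3 genes on the long arm of chromosome 3, PIK3CA was 1.49 and TP63 1.43 times its flanks. SOX2 was 0.667 times, over only 11 windows, with 5 listed where 7.5 were predicted at the ratio of its flanks. The values of NOTCH1 (0.908) and OVOL1 (0.917) could not reach 1. At the ratio of their flanks, 117 and 28.3 listed windows were predicted, above the 109 and 26 present. By share both were listed more densely than their flanks, 97.2% against 89.5% and 100% against 76.5%. Chromosome 3 as a whole had a ratio of 1.03.

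**Figure D2:**
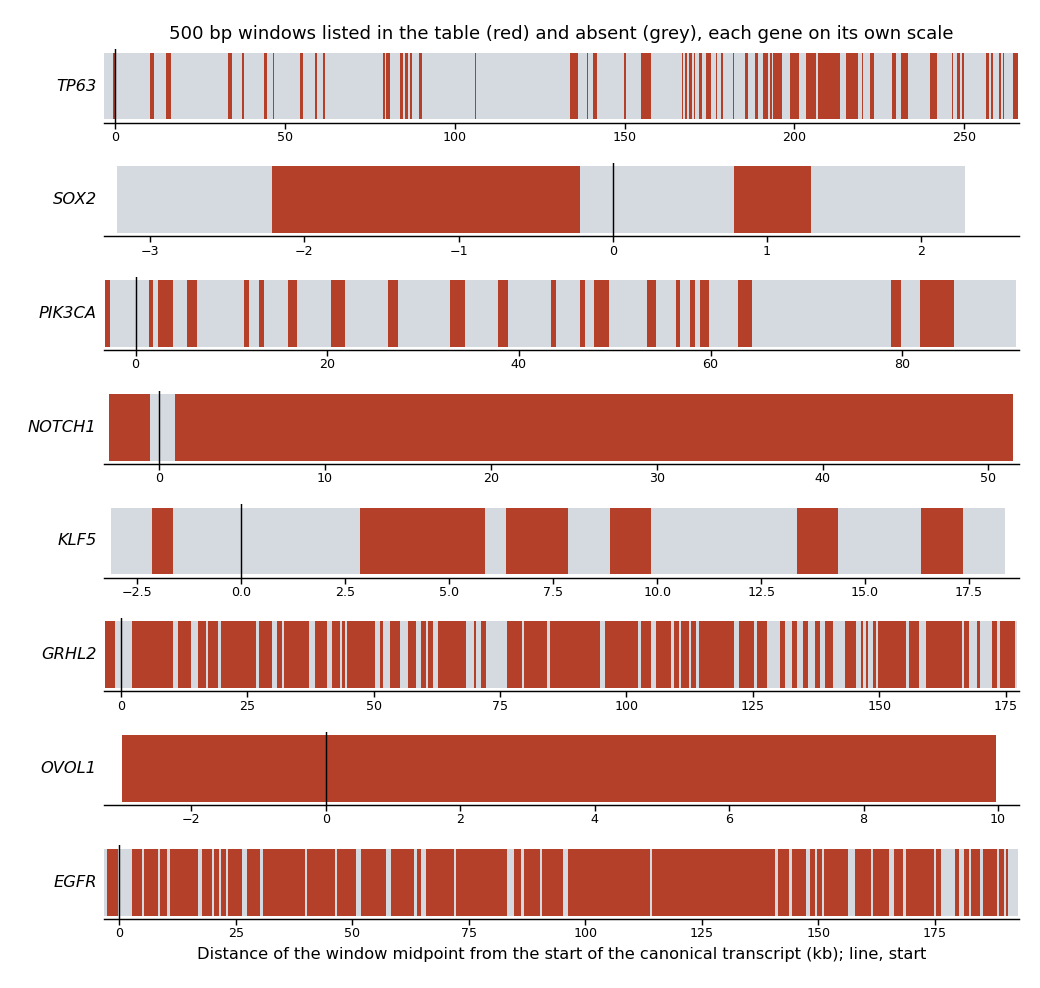
Windows of 500 bp along the 8 genes, listed in the table (red) or absent (grey), by the distance of the window midpoint from the start of the canonical transcript in kb (x axis, each gene on its own scale, vertical line at the start). NOTCH1 and OVOL1 are listed almost throughout, EGFR and GRHL2 in long runs, and TP63 mostly in its last part.

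The promoters, taken as the 3000 bp upstream of the start, had 27 of 48 windows listed (56.2%), against 39.6% of the promoter windows of all autosomal protein-coding genes. The predicted share was 30.4% and the ratio 1.85 (1.39 to 2.28). This ratio was 3.2 against the share of all autosomal windows and 1.04 relative to the 1 Mb on both sides. All 6 promoter windows were listed in OVOL1, 5 in NOTCH1 and EGFR, 4 in SOX2 and GRHL2, and 1 in each of TP63, PIK3CA and KLF5. Of 18970 genes, 1403 had all 6 promoter windows listed and 4439 had none, with a median of 2.

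At the start itself the picture changed. The window that holds the start was absent in SOX2, PIK3CA, NOTCH1, KLF5, GRHL2 and EGFR, where it had 24 to 77 CpG sites. It was listed in TP63, with 10 CpG sites, and in OVOL1, with 69. Of 18977 autosomal start windows, 27.4% were listed, and of the 8760 with 40 or more CpG sites 19.1%. The absent stretch around the start was 1000 bp long in SOX2, 1500 bp in NOTCH1, 3000 bp in EGFR, 3500 bp in GRHL2, 4000 bp in PIK3CA and 4500 bp in KLF5. Its edges differed: in EGFR it ran from -209 to 2790 relative to the start, almost wholly downstream, in KLF5 from -1642 to 2857, and in PIK3CA from -2644 to 1355, mostly upstream.

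**Figure D3:**
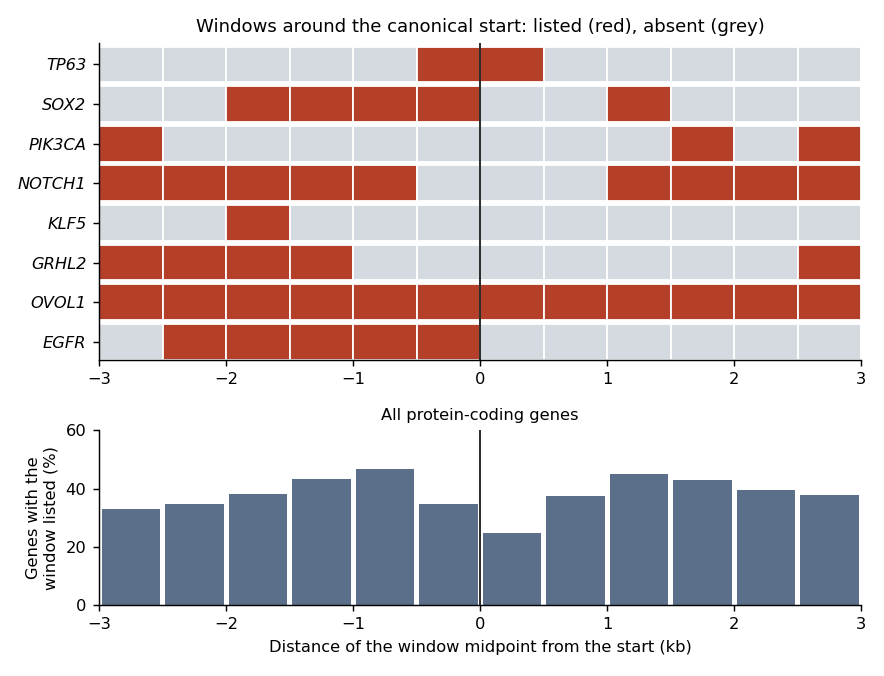
Upper panel, the 12 windows within 3 kb of the canonical start for each gene, listed (red) or absent (grey). Lower panel, the share of 19848 protein-coding genes in which the window at that distance was listed (y axis, %), which falls to 24.7% just downstream of the start. The x axis is the distance of the window midpoint from the start in kb.

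The DNA just upstream of the starts is shown for a listed start and for absent ones. The 200 bases before the start are printed for TP63, NOTCH1, KLF5 and SOX2, from GRCh37 and 5′ to 3′ on the strand of the gene, with CpG sites in capitals. The windows that hold these bases were listed for TP63 and absent for the others.
TP63, chr3:189348978-189349177, plus strand: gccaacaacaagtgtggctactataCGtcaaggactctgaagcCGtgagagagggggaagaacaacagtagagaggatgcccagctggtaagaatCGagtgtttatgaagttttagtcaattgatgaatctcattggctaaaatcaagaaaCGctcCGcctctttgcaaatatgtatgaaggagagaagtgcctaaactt
NOTCH1, chr9:139440501-139440700, minus strand: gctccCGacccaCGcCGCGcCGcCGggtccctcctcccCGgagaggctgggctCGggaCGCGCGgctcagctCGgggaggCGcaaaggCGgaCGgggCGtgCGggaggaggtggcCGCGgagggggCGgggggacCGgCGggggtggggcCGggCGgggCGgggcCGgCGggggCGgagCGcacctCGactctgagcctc
KLF5, chr13:73632943-73633142, plus strand: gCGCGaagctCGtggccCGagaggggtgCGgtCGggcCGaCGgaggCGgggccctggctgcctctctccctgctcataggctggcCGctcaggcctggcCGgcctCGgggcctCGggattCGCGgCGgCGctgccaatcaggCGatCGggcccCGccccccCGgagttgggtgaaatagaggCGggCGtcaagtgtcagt
SOX2, chr3:181429513-181429712, plus strand: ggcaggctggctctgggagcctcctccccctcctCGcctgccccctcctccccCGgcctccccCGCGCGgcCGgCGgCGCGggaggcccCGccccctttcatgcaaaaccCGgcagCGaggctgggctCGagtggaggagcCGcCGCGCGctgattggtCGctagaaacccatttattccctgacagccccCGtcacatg

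These stretches hold 5 CpG sites in TP63, 30 in NOTCH1, 23 in KLF5 and 19 in SOX2. Over 18978 autosomal promoters the median was 16.0 (quartiles 6.0 and 23.0). OVOL1, the other gene with a listed start window, has 69 CpG sites in that window, so that few CpG sites did not mark the listed starts. GC content was 43.5% in TP63, 72.5% in SOX2, 73.5% in KLF5 and 83.0% in NOTCH1.

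In EGFR the border between listed and absent windows lay 210 bases before the start. The sequences on each side of it are shown because the CpG number changes across it. The listed side ends at the border, and the absent side begins there and ends 10 bases before the start of EGFR.
EGFR listed side, chr7:55086301-55086500, plus strand: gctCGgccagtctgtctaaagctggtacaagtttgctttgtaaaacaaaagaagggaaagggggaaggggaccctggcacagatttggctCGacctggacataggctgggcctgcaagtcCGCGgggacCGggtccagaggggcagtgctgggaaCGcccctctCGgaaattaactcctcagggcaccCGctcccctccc
EGFR absent side, chr7:55086501-55086700, plus strand: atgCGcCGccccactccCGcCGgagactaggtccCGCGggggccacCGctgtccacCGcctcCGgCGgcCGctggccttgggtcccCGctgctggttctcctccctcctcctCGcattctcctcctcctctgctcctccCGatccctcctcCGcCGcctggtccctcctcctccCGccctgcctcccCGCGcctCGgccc

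The listed side has 8 CpG sites and a GC content of 60.0%, and the absent side 20 and 75.5%. The window of the start has 71 CpG sites. All 5 windows from this border back to about 2.5 kb upstream were listed, and the 6 windows downstream were absent, against 1.62 predicted to be listed. The exact pattern of EGFR over the 12 windows was found in 14 of 19848 genes. None of the genes of the pathway lists shared it.

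EGFR lies on chromosome 7 from 55086710 to 55279321 on the plus strand. Past the absent stretch at its start the receptor gene was listed in long runs between absent stretches of at most 3000 bp. The long intron 1 had 212 of 246 windows listed (86.2%, ratio 3.74), and the longest run was 53 listed windows, 26500 bp from 55201001 to 55227500, from intron 1 to intron 11. All 7 windows with their midpoint in a coding exon were listed. In 10 equal parts of the transcript the share was 71.8% in the first, 97.4% in the sixth, 100% in the seventh and 56.4% in the last. In 1 absent window (55106501 to 55107000) 287 of the 451 sequences of 50 bases, the read length, also occur on chromosome 3, so that reads there would not have been unique. Of the 6 windows with an annotated start of an EGFR transcript 3 were listed, all of them inside the gene.

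EGFR stood above the other receptors of its family. ERBB2, the partner receptor without a known ligand, had a ratio of 1.44 (39 of 63 windows). ERBB3, a receptor with weak kinase activity, had 1.01 (18 of 53), and ERBB4 0.22 (41 of 2332). The 1 Mb on both sides of ERBB4 was also sparsely listed, with a ratio of 0.386.

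TP63 lies on chromosome 3 from 189349178 to 189615065 on the plus strand and makes its proteins from separate starts. The full-length TAp63 starts at the canonical start. The shorter ΔNp63, which lacks the N-terminal transactivation domain and predominates in basal squamous cells, starts 158270 bp downstream at 189507448. The gene was split at this start after its values were seen. Before it, 42 of 317 windows were listed (13.2%, ratio 1.33, 0.999 to 1.75). From it on, 82 of 215 were listed (38.1%, ratio 2.77, 2.31 to 3.25). The intervals are too narrow to test this difference, since neighbouring windows are not independent.

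The 3000 bp upstream of the ΔNp63 start had 5 of 6 windows listed where 0.628 were predicted, whereas the window of its start and all 6 windows downstream were absent. The sequences on each side of the border between listed and absent windows are shown because, unlike in EGFR, they have the same GC content. The listed side ends 448 bases before the ΔNp63 start, and the absent side ends 248 bases before it.
TP63 listed side, chr3:189506801-189507000, plus strand: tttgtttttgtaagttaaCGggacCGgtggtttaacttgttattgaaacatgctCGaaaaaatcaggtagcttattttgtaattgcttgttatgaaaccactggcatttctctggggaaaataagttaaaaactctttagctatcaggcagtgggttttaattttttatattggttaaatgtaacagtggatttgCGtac
TP63 absent side, chr3:189507001-189507200, plus strand: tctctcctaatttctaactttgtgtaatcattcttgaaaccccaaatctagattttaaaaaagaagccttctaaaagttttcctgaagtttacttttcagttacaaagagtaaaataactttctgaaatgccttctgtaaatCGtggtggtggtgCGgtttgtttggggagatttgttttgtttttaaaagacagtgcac

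Both stretches have a GC content of 33.5%, with 4 CpG sites on the listed and 2 on the absent side. The whole 500 bp windows on the 2 sides differ more. The listed one has 8 CpG sites and a GC content of 30.0%, with 12.5% of such windows predicted to be listed. The absent one, which holds the ΔNp63 start, has 3 CpG sites and 36.8%, with 9.29% predicted. At the TAp63 start the order was different: the start window and the window just upstream were listed, and the windows on both sides of this pair were absent.

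The listed windows of TP63 were concentrated in the eighth of 10 equal parts of the transcript, where 34 of 53 were listed (64.2%, ratio 4.27), against 0 of 53 in the fifth. Intron 4 held the longest run, 13 windows and 6500 bp from 189556001 to 189562500. Of its 111 windows 54 were listed (48.6%, ratio 3.47), and of the 212 windows of intron 1 only 26 (12.3%, ratio 1.31). The longest absent stretch covered 27500 bp from 189455501 to 189483000 in introns 2 and 3. In 17 of its 55 windows some sequence of 50 bases was not unique. Its relative TP73 had a ratio of 1.37 (135 of 174 windows).

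**Figure D4:**
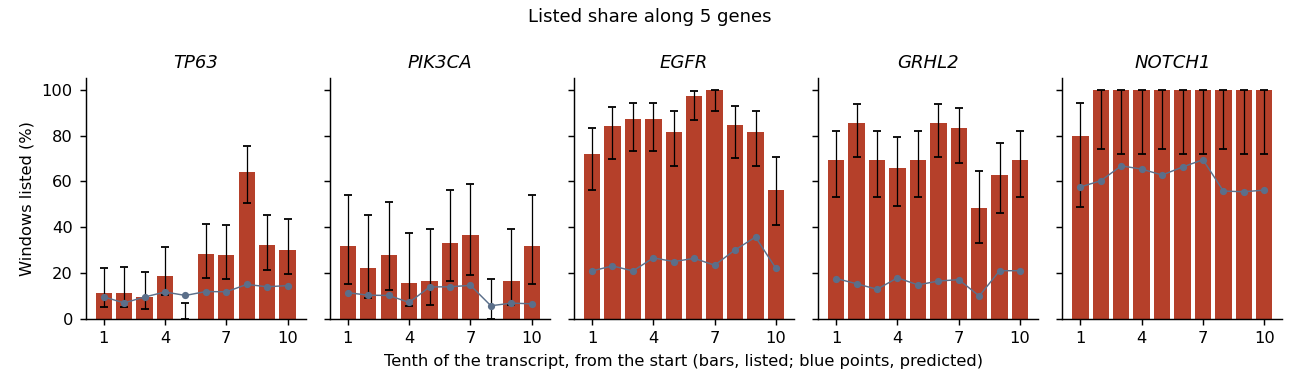
Share of windows listed (y axis, %) in each of 10 equal parts of the transcript from start to end (x axis) for TP63, PIK3CA, EGFR, GRHL2 and NOTCH1, as bars with 95% Wilson intervals over windows. Blue points give the predicted share. TP63 peaks in the eighth part (64.2%), PIK3CA has no listed window in the eighth, and NOTCH1 is at 100% after the first.

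PIK3CA lies on chromosome 3 from 178866145 to 178957881 on the plus strand. It was listed in short runs in its introns, with 1 listed window over its coding exons. Of the 25 windows that overlap a coding exon 1 was listed (4.0%, 0.71% to 19.5%, with 8.04% predicted), against 42 of the 159 other windows of the transcript (26.4%). Intron 1 had 25 of 100 windows listed (ratio 2.39). None of the 12 windows in the 3′UTR was listed (interval up to 24.2%, with 4.3% predicted), and none of the 9 windows with an annotated start. The longest absent stretch covered 14500 bp from 178930501 to 178945000, from intron 9 to intron 17, and the longest listed run 3500 bp in intron 20.

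Part of this gene has a near copy on chromosome 22, so that unique reads are limited there. In the window from 178937001 to 178937500, 303 of the 451 sequences of 50 bases also occur on chromosome 22 and in the next window 232. In the 3′UTR the same holds for 290 sequences of the window from 178955501 to 178956000 and 257 of that from 178956501 to 178957000. Of the 29 windows of the absent stretch, 17 held some sequence that is not unique. Over the whole gene, 22 of the 61 windows with any such sequence were listed, against 22 of the 129 unique ones. Of the 7 windows in which most sequences of 50 bases were not unique, 1 was listed. The longest exact match is shown to make this limit visible, with the 90 bases of coding exon 12 in capitals. It spans 255 bases and also occurs on the plus strand of chromosome 22 from 17053774 to 17054028.
PIK3CA, chr3:178937194-178937448, plus strand: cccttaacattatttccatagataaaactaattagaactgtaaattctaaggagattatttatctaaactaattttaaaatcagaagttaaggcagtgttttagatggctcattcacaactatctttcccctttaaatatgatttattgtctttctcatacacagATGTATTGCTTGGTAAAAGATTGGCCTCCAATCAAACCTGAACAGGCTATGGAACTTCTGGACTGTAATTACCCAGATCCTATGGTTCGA

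Over the unique windows the ratio of PIK3CA was 2.32, against 2.18 over all 190. Its relatives differed widely. PIK3CB, which encodes the p110β subunit, had 149 of 371 windows listed (ratio 2.22), PIK3CD, for the p110δ subunit of leukocytes, 93 of 160 (1.43), and PIK3CG, for the p110γ subunit, 5 of 94 (0.413).

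NOTCH1 lies on chromosome 9 from 139388885 to 139440500 on the minus strand. It was listed over its whole length but for 3 windows at the start. These cover 1500 bp from -500 to 999 relative to the start and have a mean of 64.3 CpG sites. From there 101 windows in a row, 50500 bp, were listed to the end of the gene, including 40 of 40 in intron 2 and 18 of 18 in coding exons. The predicted shares here were high, 62.3% on average over the run. Of the 6 windows with 40 or more CpG sites 3 were listed. The same pattern over the 12 windows around the start was found in 126 genes, among them CEBPA and KLF4, which encode transcription factors of epithelial differentiation.

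Of the other Notch receptors, NOTCH2 had a ratio of 1.49 (1.19 to 1.84), which overlaps that of NOTCH1. NOTCH3 with 1.18 (0.951 to 1.41) and NOTCH4, best known from endothelium, with 0.837 (0.568 to 1.16) lay below it. The shares of NOTCH1 and NOTCH2 were unlike, 97.2% (61.4% predicted) and 19.8% (64 of 323 windows, 13.3% predicted). With 106 of 109 windows listed, the ratio of NOTCH1 could hardly be higher. Of 13 genes of the Notch pathway with at least 20 windows, 11 had a ratio above 1, with a median of 1.5, against 57.1% and 1.13 over all genes. The highest were NUMB (4.0), an inhibitor of Notch that acts on its trafficking, and the coactivator MAML1 (1.76). The lowest were RBPJ (0.71), the DNA-binding partner of the cleaved receptor, and the coactivator MAML3 (0.787). The ligand genes JAG1, JAG2, DLL1, DLL3 and DLL4 lay between 1.21 and 1.75.

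KLF5 lies on chromosome 13 from 73633143 to 73651676 on the plus strand and encodes a Krüppel-like factor of proliferating basal epithelium. Of its 43 windows 16 were listed (37.2%). Of its 6 promoter windows 1 was listed, and the first listed window downstream had its midpoint 3107 bp from the start. The windows from exon 2 to intron 3, where 6 in a row were listed (3000 bp from 73636001 to 73639000), followed directly on the absent stretch. An upstream start of KLF5, at -4029 relative to the canonical start, lay in a listed window with 3 CpG sites. KLF4 (2.27) and KLF6 (2.1) had ratios near that of KLF5, and KLF3 had 1.6 and KLF7 1.0.

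SOX2 lies on chromosome 3 from 181429713 to 181432224 and has a single exon. Of its 11 windows 5 were listed: 4 in a row upstream, from 181427501 to 181429500, and 1 inside the gene. The 2 windows of the 3′UTR were absent. With 11 windows the interval of its ratio was wide, from 0.581 to 1.97, and covers counting only. SOX1, SOX3 and SOX21, with 10 to 15 windows each, had ratios of 1.85, 0.0 and 0.681.

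OVOL1 lies on chromosome 11 from 65554534 to 65564685 on the plus strand and encodes a zinc finger factor that restrains proliferation of epithelial progenitors. All 26 of its windows were listed, including the CpG-rich start. They belong to a stretch of 89 listed windows, from -6033 to 38466 relative to the start, where 39.2 were predicted. A pattern of 12 listed windows around the start was found in 416 genes, among them CCND1, FADD and ZNF750. CCND1 and FADD lie on the same chromosome arm, and had 32 of 32 and 14 of 14 windows listed. OVOL2 had 15 of 73 windows listed (ratio 0.637) and OVOL3 10 of 11 (2.07).

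GRHL2 lies on chromosome 8 from 102504667 to 102681954 on the plus strand and encodes a grainyhead-like factor that maintains epithelial junctions. In 10 equal parts of the transcript the listed share lay between 48.6% (33.0% to 64.4%) in the eighth and 85.7% (70.6% to 93.7%) in the second and the sixth, where 9.97% to 21.0% were predicted in the parts. Introns 1, 7 and 8 had 79 of 101, 39 of 44 and 34 of 41 windows listed, with ratios of 5.11, 4.91 and 4.9. Introns 2, 4 and 9 were listed less densely, with 10 of 19, 10 of 23 and 9 of 24 windows and ratios of 3.67, 4.31 and 4.51. The longest run was 20 listed windows, 10000 bp in intron 7, and the longest absent stretch 8 windows, 4000 bp in intron 4 with a mean of 1.12 CpG sites. Among windows with 0 to 2 CpG sites, 55 of 119 in GRHL2 were listed. Of the 3 windows with an annotated start, that of the canonical start was absent and the other 2, far inside the gene, were listed. Its paralogues GRHL1 (0.811, 0.546 to 1.16) and GRHL3 (0.968, 0.693 to 1.29) had intervals that include 1.

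Taken by CpG number, the ratio of listed to predicted windows in the 8 genes was highest where CpG sites were few, 5.56 with 0 to 2 sites, 3.82 with 3 to 5 and 1.54 with 20 to 39, whereas the gap between the shares was not. Of windows with 0 to 2 CpG sites 26.3% were listed (128 of 487), against 4.98% of such autosomal windows, and with 3 to 5 sites 52.5% against 14.6%. The shares were 75.0% against 30.4% with 6 to 9 sites, 86.4% against 45.7% with 10 to 19, and 89.7% against 48.5% with 20 to 39. With 40 or more sites the share fell to 35.0% (7 of 20, interval 18.1% to 56.7%), which includes the 29.4% of all autosomal windows. These 7 windows were 3 of NOTCH1, 3 of OVOL1 and 1 of SOX2. EGFR, GRHL2, KLF5 and PIK3CA had 9 such windows, all absent.

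**Figure D5:**
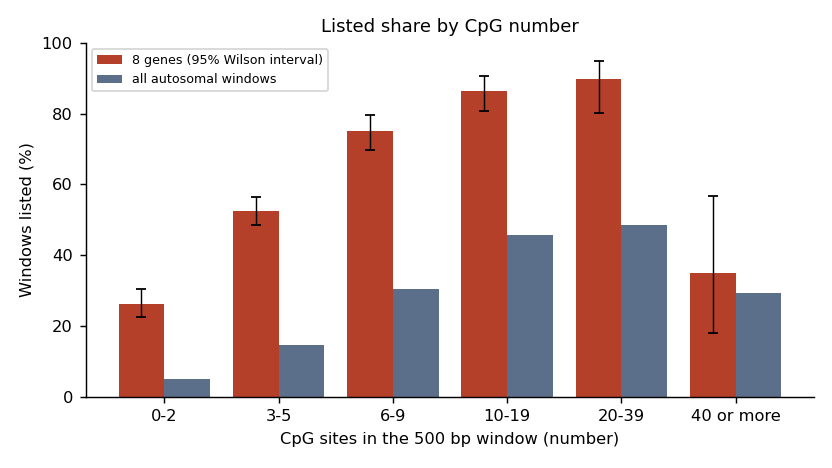
Share of windows listed (y axis, %) by the number of CpG sites in the window (x axis), for the 8 genes (red, with 95% Wilson intervals over windows) and for all autosomal windows (blue). The genes lie above all autosomal windows in the classes up to 39 sites, and at 40 or more sites the interval spans the autosomal value.

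By position, 821 of 1527 windows with their midpoint in an intron were listed (18.9% predicted, ratio 2.84) and 33 of 41 in a coding exon (44.9% predicted, ratio 1.79). In a 3′UTR 21 of 46 were listed (18.6% predicted, ratio 2.46) and in a 5′UTR 2 of 8 (31.6% predicted, ratio 0.792). The ratio was 1.96 over the 164 windows that overlap a coding exon and 2.93 over the other 1458 windows of the transcripts. Within single genes this order was reversed in NOTCH1 (1.63 and 1.57), KLF5 (2.95 and 2.47) and SOX2 (0.812 and 0.0, over 3 and 2 windows). It held in the other genes. In OVOL1 all windows of both kinds were listed (4 of 4 and 16 of 16), so that its order came from the prediction alone. NOTCH1 was close to this, with 41 of 42 and 60 of 61 listed.

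The counts of genes with a ratio above 1 are read against 57.1% of all genes. Among related genes, 11 of the 17 family members with at least 20 windows had a ratio above 1, and their median was 1.06. Of 20 genes of EGFR and PI3K signalling 13 lay above 1 (median 1.28). The EGFR ligand genes lay at both ends: EREG had 3.14 and HBEGF 2.42, and none of the 25 windows of AREG was listed. The kinase gene MTOR was next lowest (0.567). Uniqueness of sequence was examined only in the 8 genes, so that whether AREG allows unique reads was not tested. Of 9 further squamous transcription factors 8 lay above 1 (median 1.88), with EHF (2.38) and ZNF750 (2.28) highest and BCL11B (1.12) and MAF (0.676) lowest. Of 16 other drivers of head and neck cancer 11 lay above 1 (median 1.58). NFE2L2 (3.22), the regulator of the antioxidant response, and the receptor gene TGFBR2 (2.61) were highest there, and the cell cycle inhibitor RB1 (0.427) and the receptor gene FGFR1 (0.252) lowest. The corresponding median over all genes was 1.13.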

How the data were processed

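5hmC-Seq libraries of FADU cells were sequenced by the authors as 50 base single-end reads, mapped to hg19 with Bowtie 0.12.7 (unique hits, duplicates removed) and counted in 500 bp windows with MEDIPS. The only deposited columns used here are the start and stop positions of the listed windows. The 4 columns with values per library match no label and were not used, and the rule that kept a window is not given in the sources used here beyond a minimum of 20 in the name of the table. Read depth per library is not analysed here.

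CpG sites and GC were counted in GRCh37 with NumPy 2.4.6. The predicted share was taken over autosomal windows with the same CpG number (40 or more as 1 class) and GC step of 25 bases. Genes followed GENCODE version 44 lifted to GRCh37. Uniqueness refers to exact matches of 50 bases, and the mapping allowed mismatches. Scripts were tested on simulated data. The members, gene lists and alternatives were chosen with earlier results of these data known. Named were the 8 genes, their families (some items are not reported here), the highest and lowest pair of each list and genes sharing a start pattern. Further genes and windows were singled out after their values were seen.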

Additional observations from a re-analysis of the deposited data

How the results depend on the processing

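The ratios of listed to predicted windows stayed above 1 under all alternatives for the 8 genes together (2.72), their promoters (1.85) and their bodies (2.76). Without a prediction, against the share of all autosomal windows, they were 3.08, 3.2 and 3.08. With the prediction made within each chromosome, the genes had 2.56 and the bodies 2.59. As the median of the 8 genes, the ratio was 2.1 for genes and 2.17 for bodies, and over windows with only unique sequences it was 2.88 for bodies. Without EGFR and GRHL2 the genes had 1.85 and the bodies 1.88, and relative to the 1 Mb on both sides the 3 ratios were 1.49, 1.04 and 1.51. These last settings were chosen after seeing the data. Of 64 values for single genes, 61 lay above 1. Relative to the 1 Mb on both sides SOX2 had 0.667 (5 of 11 windows listed, 7.5 predicted), and the cause was not tested. NOTCH1 (0.908) and OVOL1 (0.917) could not reach 1 there, because 117 and 28.3 listed windows were predicted among 109 and 26.

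No paired analysis was possible because the value columns, which name no replicate, were not used. Without an input library in these results, and with the values per library unused, a window's place in the table gives neither the amount of 5hmC nor the condition. Absence can come from few reads or from sequence that is not unique, and the parts of these were not tested window by window. The DNA copy number of the regions was not examined.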
